A study of Mus musculus with 24 samples.

Results

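Small leucine-rich proteoglycans are secreted matrix proteins, and 8 of their genes (Prelp, Lum, Dcn, Bgn, Fmod, Ogn, Omd and Aspn) were followed here among the 35976 genes listed in each expression table. The members were chosen by name. The study asked how loss of Sun1, which sits in the inner nuclear membrane and links the lamina to the cytoskeleton, changes CT26 cells and the tumors they form. CT26 is a mouse line from BALB/c labelled as colon cancer. Messenger RNA was sequenced from 24 libraries.

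The Sun1 knockout (KO) tumors gave 7 libraries and tumors of control line 1 gave 8, all grown under the skin of BALB/c mice and collected at day 14. Tumor cells purified from such tumors with an isolation kit gave 2 libraries each for the KO line, control line 1 and control line 2. Cultured cells gave 1 library for each of the same 3 lines. The genotype label is Sun1 knockout for the KO line and wild type for both control lines. Every KO library comes from a single KO line, and every control tumor comes from control line 1, so in tumors the genotype cannot be told apart from the line. The age and sex of the hosts are not given. Total expected counts were 14140769 to 24651279 in tumors, 17068356 to 22593612 in purified cells and 18832201 to 20716917 in culture. Sun1 averaged 57.5 CPM (counts scaled to library size) in KO tumors and 179 CPM in control tumors, and it was lower in every KO library than in every control library of its setting. Of 9 colon epithelial markers, Epcam and Krt19 were at 0 counts in all purified and cultured libraries, although the line is labelled as colon cancer. Some others were present. Krt18 was at 69.5 CPM in cultured control line 1, 119 CPM in control line 2 and 0.592 CPM in KO cells. Cdx2 was at 2.37 to 4.13 CPM in culture, and Lgals4 averaged 2.04 to 4.39 CPM over the purified lines.

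As background, these proteoglycans share a core protein built of leucine-rich repeats, to which chains of chondroitin, dermatan or keratan sulfate can be attached. They bind fibrillar collagen and shape its fibrils, and several hold growth factors or signal through receptors. Fibroblasts are their usual source in connective tissue and in tumor stroma. Class I holds Dcn (decorin), Bgn (biglycan) and Aspn (asporin). Class II holds Lum (lumican), Fmod (fibromodulin), Prelp (prolargin) and Omd (osteomodulin). Class III holds Ogn (osteoglycin, or mimecan).

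Per length of transcript, in TPM (transcripts scaled to length and library) as deposited, the sum of the 8 genes was 335 ± 51.0 TPM in KO tumors (SD, n = 7) and 552 ± 72.4 TPM in control tumors (SD, n = 8). In purified cells it was 233 ± 21.5 TPM in the KO line, 835 ± 195 TPM in control line 1 and 180 ± 39.9 TPM in control line 2 (SD, n = 2 each). In culture it was 17.0 TPM in the KO line, 48.8 TPM in control line 1 and 22.8 TPM in control line 2. Decorin held the largest mean share of that sum in tumors, 41.7% in KO and 56.1% in control tumors. In culture osteoglycin and osteomodulin led instead, with 50.5% and 35.3% of the sum in KO cells. In purified cells the leading gene by mean TPM was Aspn in the KO line, Dcn in control line 1 and Ogn in control line 2. Within purified KO cells, however, Aspn (68.6 ± 12.3 TPM), Dcn (59.6 ± 0.891 TPM) and Ogn (59.0 ± 7.37 TPM) were within each other's spread. Fmod was last or next to last in all 8 groups, with 71 counts over the 24 libraries and 0 counts in 5 of them.

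In whole tumors, 3 of the 7 members tested were lower in KO than in control tumors: prolargin, decorin and osteomodulin. Prolargin had the largest difference of the 7, with a mean 5.12-fold lower in KO tumors by the fitted change. Fmod did not pass the filter on low counts. Of the 13752 genes tested, edgeR called 37.1% in either direction and 19% lower. A share of 3 in 7 is close to the first and above the second, which was not tested on so few genes. No member was called higher by edgeR, and DESeq2 called 1, biglycan. The median log2 fold change was -0.45 over the 7 members and 0.0092 over all genes tested.

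Prelp encodes a proteoglycan that lies where basement membranes meet connective tissue and binds collagen and heparan sulfate. Its level in KO tumors was 10.3 CPM at the lowest, 12.2 CPM at the median and 17.8 CPM at the highest, against 59.6, 68.1 and 76.5 CPM in control tumors. The ranges did not meet, with every KO tumor far below every control tumor. Means were 13.1 ± 2.74 CPM in KO tumors (SD, n = 7) and 67.3 ± 6.37 CPM in control tumors (SD, n = 8), a difference of -2.36 ± 0.10 on the log2 scale (SE; adjusted p = 2.96e-12 by edgeR). Ranges lay apart with KO lower for 6.08% of all genes tested and with KO higher for 3.12%, and among the members for Prelp and Dcn, both with KO lower. Whole tumors hold host cells as well as CT26 cells, and in such bulk samples fewer cells of a type and less RNA per cell cannot be told apart.

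Prelp lies on the reverse strand of chr1:133910304-133930102 (GRCm38). An exon of an antisense gene, Gm15851, overlaps its exons by 350 bases in the GENCODE annotation, and without a stated strand setting reads from that stretch cannot be told apart. Its promoter sequence is shown because Prelp differed most between KO and control tumors. The 250 bases before its start, from RefSeq (GRCm38.p6, chr1:133921402-133921651, reverse strand), were searched on both strands for TATAAA and for the E box CANNTG, and neither is in this window. The start used for this window lies inside the gene span given above, so the window lies within that span. TATAAA is found in 12.4% and CANNTG in 66.2% of 32851 mouse promoters of that length.
Prelp: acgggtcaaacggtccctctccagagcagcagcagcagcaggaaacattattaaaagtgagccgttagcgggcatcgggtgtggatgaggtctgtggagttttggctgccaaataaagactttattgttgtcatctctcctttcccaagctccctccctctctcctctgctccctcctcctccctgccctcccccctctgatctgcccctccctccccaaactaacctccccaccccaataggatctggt

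The letters hold 55.6% G and C, against a median of 52.4% over all promoters. The next member on that chromosome, Fmod, starts 107 kb away and was nearly silent, while Optc, a class III gene 615 bases from Prelp on its other side, averaged 0.0850 CPM in KO tumors and 0.220 CPM in control tumors.

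Dcn encodes decorin, which coats collagen fibrils and binds TGF-beta and receptor tyrosine kinases such as Met. It had 141 CPM at the lowest, 214 CPM at the median and 258 CPM at the highest in KO tumors, against 341, 417 and 461 CPM in control tumors. All KO tumors lay below all control tumors. Means were 202 ± 48.0 CPM in KO tumors and 410 ± 38.2 CPM in control tumors (SD, n = 7 and 8), with a difference of -1.02 ± 0.12 on the log2 scale (SE; adjusted p = 1.18e-05 by edgeR).

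Omd encodes osteomodulin, a keratan sulfate proteoglycan known from mineralising bone matrix. Its values were 25.2 CPM at the lowest, 28.5 CPM at the median and 46.8 CPM at the highest in KO tumors, against 40.7, 53.9 and 63.7 CPM in control tumors. The ranges overlapped through 1 KO tumor, replicate 2. The log2 fold change was -0.74 ± 0.15 (SE; edgeR adjusted p = 0.00109).

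The other 4 tested members did not pass the threshold in tumors. Bgn encodes biglycan, a relative of decorin that can act on Toll-like receptors. It ranged over 34.5 to 132 CPM with a median of 58.9 CPM in KO tumors, against 28.4 to 55.3 CPM with a median of 46.1 CPM in control tumors. Replicate 5 of the KO tumors, at 132 CPM, was well above the rest. The log2 fold change was 0.65 ± 0.26 (SE; edgeR adjusted p = 0.0608), and without KO replicate 6, the lowest KO tumor, it was 0.76 with adjusted p = 0.0279. Without KO replicate 5, the highest, it was 0.39 with adjusted p = 0.127. The authors' deposited table gives biglycan an adjusted p of 0.0478 in tumors, with a log2 value of -0.64, where that table runs control over knockout because Sun1 is positive in it.

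Ogn, a class III member found in bone and vessel walls, had 79.3 to 199 CPM in KO tumors with a median of 111 CPM, against 53.3 to 119 CPM with a median of 102 CPM in control tumors. Its log2 fold change was 0.42 ± 0.22 (SE; edgeR adjusted p = 0.146), with the ranges overlapping. Aspn, whose product binds collagen and TGF-beta, had 94.7 to 213 CPM in KO tumors with a median of 119 CPM, against 104 to 241 CPM with a median of 179 CPM in control tumors. Its log2 fold change was -0.45 ± 0.20 (SE; edgeR adjusted p = 0.0973). Aspn was called lower without KO replicate 6 (adjusted p = 0.0186) and also without control replicate 8 (adjusted p = 0.0372). Lum, a keratan sulfate proteoglycan of cornea and skin, had 7.17 to 22.7 CPM in KO tumors and 8.10 to 20.5 CPM in control tumors, a difference of -0.13 ± 0.26 on the log2 scale (SE; adjusted p = 0.730 by edgeR). Fmod had 31 counts in all KO tumors together and 21 in all control tumors, too few for a comparison.

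**Figure D1:**
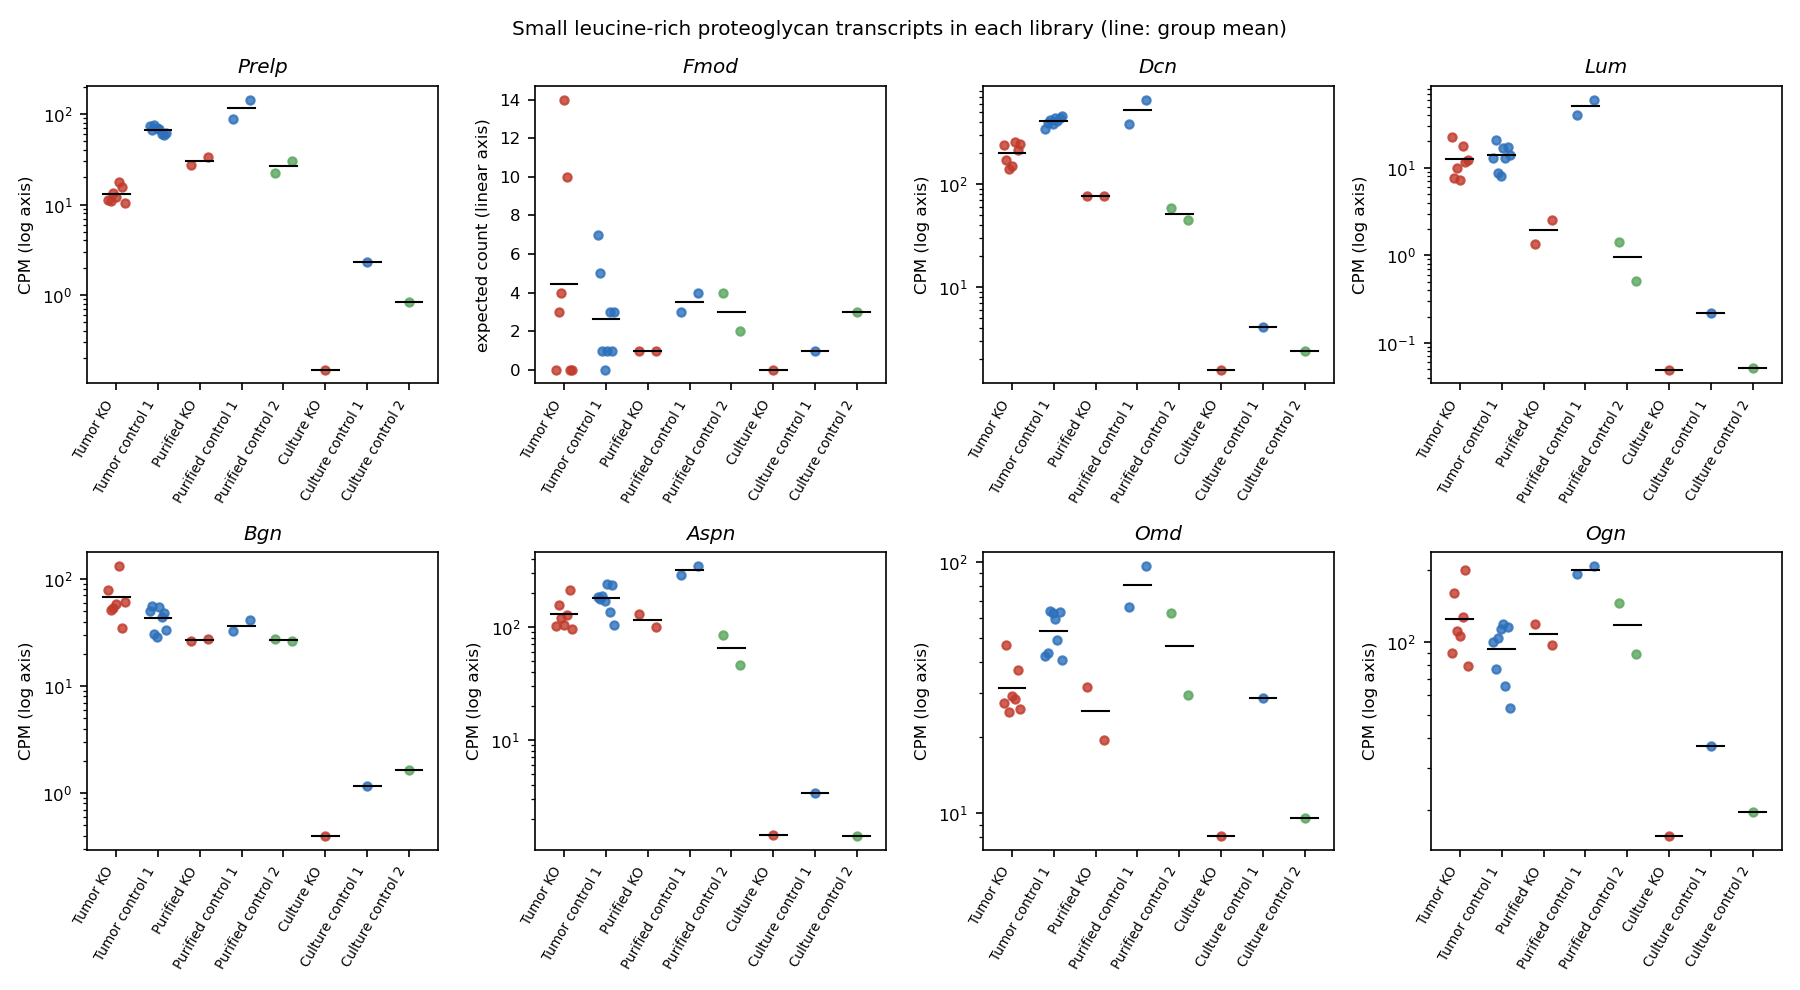
Each point is a library, with CPM on a log axis (expected counts on a linear axis for Fmod) and a line at the group mean. Prelp sits at 10.3 to 17.8 CPM in KO tumors, below the 59.6 to 76.5 CPM of control tumors, and 6 of the 7 tested genes, Omd being the exception, have every cultured library below every purified library.

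Markers of other cell types were counted in the same tumors, where edgeR called 18.1% of all genes tested higher and 19% lower. Counts near those shares are not read as a result about a cell type. Of 11 tested fibroblast markers 4 were higher and 2 lower in KO tumors. Dpt, a fibroblast matrix gene, averaged 21.1 CPM in KO and 8.52 CPM in control tumors, and the scavenger receptor gene Scara5 averaged 22.4 CPM in KO and 68.0 CPM in control tumors. The summed fibroblast level was 2192 to 3361 CPM in KO tumors and 2076 to 3180 CPM in control tumors, so the 2 ranges overlapped. Of 9 tested leukocyte markers 4 were higher and 1 lower, with sums of 492 to 996 CPM in KO and 414 to 868 CPM in control tumors. The endothelial list had 2 of 7 higher, with sums of 77.8 to 125 CPM in KO and 64.3 to 84.1 CPM in control tumors. Among 6 skeletal muscle markers 5 were higher, with sums of 5.70 to 134 CPM in KO and 3.80 to 18.0 CPM in control tumors. Pericyte and smooth muscle markers had 1 of 10 higher. For adipocytes 1 of 1 tested marker was higher, for keratinocytes 0 of 1 and for cartilage, bone and tendon 0 of 2. Schwann cell markers had 1 of 2 lower, and colon epithelial markers had 1 of 4 lower, Krt18, at 0.254 CPM in KO and 10.5 CPM in control tumors. The part of these cells in the proteoglycan differences was not tested.

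Purified tumor cells allowed the KO line to be set against both control lines. With the control lines as a single arm, edgeR called 0 of the 7 members tested, where it called 4.55% of 12476 genes in either direction and 2.29% lower. DESeq2 also called 0 members, and 1 member, Omd, had an unadjusted p under 0.05. The members' median log2 fold change was -1.22, against -0.015 over all genes.

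Osteomodulin had 31.7 and 19.5 CPM in purified KO cells, against 66.2 and 96.3 CPM in control line 1 and 62.6 and 29.6 CPM in control line 2. Its highest KO library lay above the lowest library of control line 2, so the arms overlapped. The log2 fold change was -1.31 ± 0.47 (SE; edgeR adjusted p = 0.176), and it was called lower without replicate 2 of control line 2 (adjusted p = 0.0293).

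Prolargin had 27.5 and 33.6 CPM in purified KO cells, against 88.3 and 145 CPM in control line 1 and 22.1 and 30.7 CPM in control line 2. Decorin had 76.3 CPM in both purified KO libraries, against 386 and 660 CPM in control line 1 and 58.4 and 44.6 CPM in control line 2. Lumican had 1.33 and 2.52 CPM in purified KO cells, against 40.5 and 60.3 CPM in control line 1 and 1.42 and 0.508 CPM in control line 2. For all 3 genes the KO libraries lay far below control line 1 and close to control line 2. Asporin followed the same order of lines, with 131 and 99.1 CPM in purified KO cells, against 287 and 345 CPM in control line 1 and 83.9 and 45.5 CPM in control line 2.

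Set against control line 1 alone, the purified KO cells were lower for 6 of 7 members, where 18.4% of all genes tested were called in either direction and 10.1% lower. The log2 fold changes were -4.70 ± 0.38 for Lum, -2.76 ± 0.28 for Dcn, -1.92 ± 0.27 for Prelp, -1.45 ± 0.33 for Aspn, -0.88 ± 0.23 for Ogn and -0.44 ± 0.14 for Bgn (SE). Their edgeR adjusted p ran from 0.000201 for Lum to 0.0484 for Aspn, and Omd (-1.66 ± 0.51, adjusted p = 0.118) was not called. Against control line 2 alone, edgeR called 0 of 7 members and 21.4% of all genes, and 0 members had an unadjusted p under 0.05. There the estimate for Prelp was 0.21, within -0.34 to 0.76 at 2 SE on either side, and that for Bgn was -0.0052, within -0.28 to 0.27. That for Lum was 1.02 (-0.070 to 2.11), for Dcn 0.57 (0.019 to 1.12) and for Aspn 0.83 (0.16 to 1.5). The 2 SE ranges of Dcn and Aspn lay above 0, but with unadjusted edgeR p of 0.0875 and 0.0599 neither gene was called. The estimate for Omd was -0.84 (-1.86 to 0.17) and that for Ogn -0.12 (-0.57 to 0.33). The 2 comparisons share the KO libraries. Both purified control lines keep Sun1, at 165 and 167 CPM in control line 2 and 174 and 214 CPM in control line 1, against 50.9 and 55.5 CPM in KO cells.

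The control lines themselves differed in these genes. In purified cells of control line 2, 5 of 7 members tested were lower than in control line 1, where edgeR called 15.7% of all genes in either direction, 6.73% higher and 9.01% lower. The median over the members was -2.13 on the log2 scale, against 0.0029 over all genes. Lumican averaged 0.965 ± 0.646 CPM in control line 2 and 50.4 ± 14.0 CPM in control line 1 (SD, n = 2 each), a difference of -5.72 ± 0.42 on the log2 scale (SE; adjusted p = 0.000226 by edgeR). Decorin averaged 51.5 ± 9.71 CPM in control line 2 and 523 ± 194 CPM in control line 1, a difference of -3.33 ± 0.29 on the log2 scale (SE; adjusted p = 0.00205 by edgeR). Asporin fell by 2.28 ± 0.34 and prolargin by 2.13 ± 0.28 on the log2 scale (SE; edgeR adjusted p = 0.0184 and 0.00481). Biglycan differed least among the 5, at -0.43 ± 0.14 (SE; edgeR adjusted p = 0.04999, just inside the threshold). That call was lost under 8 alternatives, among them upper-quartile scaling, DESeq2 and the replicate block, with an adjusted p of 0.0578 to 0.392. Ogn (-0.76 ± 0.23, edgeR adjusted p = 0.0694) and Omd (-0.81 ± 0.49, edgeR adjusted p = 0.362) did not pass. Ogn was called under 7 alternatives, among them DESeq2, the replicate block and no filter on low counts, with an adjusted p of 1.55e-08 to 0.0478. Ranges lay apart with control line 2 lower for 7 of 7 members and for 30.6% of all genes tested.

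Leaving out replicate 1 of control line 2 left 3 members called lower, Lum, Aspn and Ogn, with Prelp (adjusted p = 0.0901), Dcn and Bgn no longer called. Without either replicate of that line, the adjusted p of Dcn was 0.0508 to 0.0601 at log2 fold changes of -3.15 to -3.55. Lumican and asporin stayed called when any purified library was left out, with an adjusted p of at most 0.0332. This comparison shares control line 1 with the one above, so the likeness of their values is not independent.

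**Figure D2:**
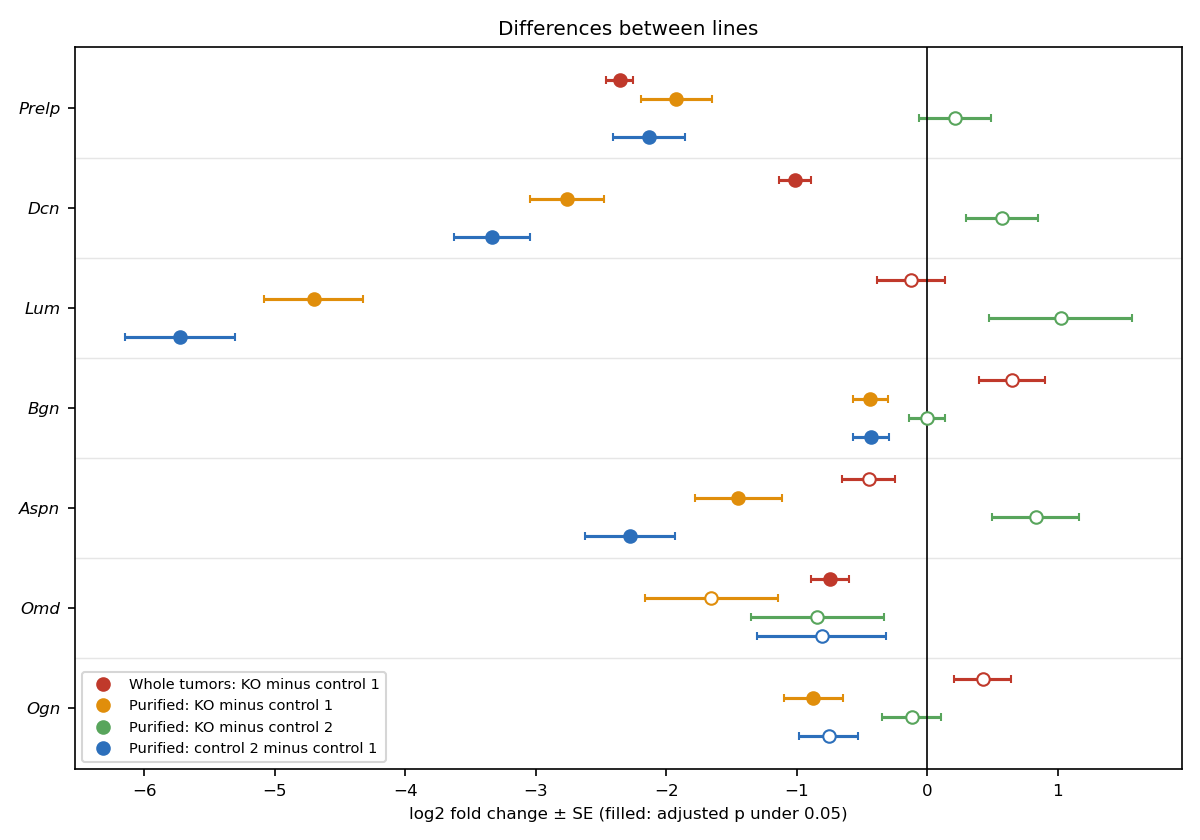
Points are log2 fold changes with SE (x axis) of the 7 tested genes in whole tumors and purified cells, filled where the edgeR adjusted p is under the threshold of 0.05. KO minus control 1 and control 2 minus control 1 in purified cells lie to the left for Lum (-4.70 and -5.72) and Dcn (-2.76 and -3.33), while KO minus control 2 lies near or above 0 for every gene but Omd.

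The summed fibroblast markers of purified cells differed between lines in the same order as Dcn, and Col1a2, Col3a1 and Col1a1 made up most of the sum. It was 3965 to 4173 CPM in KO cells, 3552 to 3555 CPM in control line 2 and 5328 to 5423 CPM in control line 1. Of 12 fibroblast markers tested, 1 was higher and 5 were lower in control line 2 than in control line 1, where edgeR called 6.73% of all genes higher and 9.01% lower. Col1a1, Col1a2 and Col3a1 belong to that list and are made by the cultured lines as well, where the sum was 1502 CPM in KO cells, 1624 CPM in control line 2 and 2029 CPM in control line 1. Single markers differed from each other. Dpt averaged 16.1 CPM in purified KO cells, 2.29 CPM in control line 2 and 1.59 CPM in control line 1, and was at most 0.690 CPM in culture. Scara5 averaged 41.1 CPM in KO cells, 4.61 CPM in control line 2 and 38.1 CPM in control line 1, and was at most 0.713 CPM in culture. Twist2 averaged 140 CPM in KO cells, 94.4 CPM in control line 2 and 137 CPM in control line 1, so for Scara5 and Twist2 the KO means were near control line 1. Mfap5 was at 0.321 to 1.85 CPM and Thy1 at 0.145 to 1.26 CPM over the purified libraries, against tumor means of 14.3 CPM (KO) and 7.81 CPM (control) for Mfap5 and 65.7 CPM (KO) and 43.0 CPM (control) for Thy1. Leukocyte sums were 64.9 to 86.5 CPM in KO cells, 51.3 to 52.7 CPM in control line 2 and 84.7 to 86.7 CPM in control line 1. Cd14 made up most of them, averaging 72.5 CPM in purified KO cells, 42.6 CPM in control line 2 and 79.0 CPM in control line 1. The cultured lines expressed Cd14 as well, at 45.7, 23.7 and 41.4 CPM in the same order. Endothelial sums were 0.597 to 0.774, 0.462 to 1.84 and 1.21 to 1.48 CPM in the same order. The part of host cells left after purification was not tested beyond these values.

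In culture the same 3 lines expressed little of most members, and each line has 1 library. With the control lines as 1 arm, edgeR called 0 of 6 members tested and 0% of 12175 genes. DESeq2 called 0 members and 45 genes, and Prelp alone among the members had an unadjusted p under 0.05. The members' median log2 fold change was -1.15, against -0.0089 over all genes. The size depends on the control line kept. With either left out, it was -1.21 to 0.021 for Aspn, -1.83 to -0.25 for Omd and -1.25 to -0.34 for Ogn. It was -1.34 to -0.57 for Dcn, -1.84 to -1.35 for Bgn and -3.27 to -1.91 for Prelp. Prolargin had 3 counts (0.148 CPM) in cultured KO cells, against 42 counts (2.30 CPM) in control line 1 and 16 counts (0.826 CPM) in control line 2. The ratio of KO to control counts was 0.0959, with an exact 95% interval of 0.0192 to 0.294 that covers counting error only. Osteoglycin was the most abundant member in culture, with 15.6 CPM in KO cells, 36.9 CPM in control line 1 and 19.6 CPM in control line 2. Osteomodulin had 8.08 CPM in KO cells, 28.6 CPM in control line 1 and 9.55 CPM in control line 2. Decorin had 1.58, 4.11 and 2.37 CPM and biglycan 0.394, 1.15 and 1.65 CPM in the same order of lines. Asporin had 1.43 CPM in KO cells, 3.40 CPM in control line 1 and 1.39 CPM in control line 2. Lumican gave 1, 4 and 1 counts and fibromodulin 0, 1 and 3 counts, so no difference could be detected at this depth.

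Purified cells were also set against cultured cells, a step that joins growth in the mouse with purification. In purified cells, 7 of 7 were higher than in culture over the 3 lines, where edgeR called 43.5% of 12651 genes in either direction and 22.1% higher. The median was 5.75 on the log2 scale over the members and 0.013 over all genes. Class by class, the log2 fold changes of purified over cultured cells were 5.87 ± 0.55 for Dcn, 4.84 ± 0.26 for Bgn and 6.23 ± 0.33 for Aspn (SE). They were 7.18 ± 0.62 for Lum, 5.75 ± 0.36 for Prelp, 1.80 ± 0.34 for Omd and 2.61 ± 0.16 for Ogn (SE). The edgeR adjusted p ran from 1.07e-07 for Bgn to 0.00505 for Omd, the only one whose ranges overlapped. Every purified library lay above every cultured library for 6 of 7 members and for 14% of all genes tested. No library left out ended any of these calls.

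Within each line, decorin was 48.4-fold higher in purified than in cultured cells of the KO line, 127-fold in control line 1 and 21.7-fold in control line 2. Asporin was 80.3-fold, 92.9-fold and 46.4-fold higher in the same order of lines, and biglycan 68.1-fold, 31.8-fold and 16.3-fold. Prolargin was 50.7-fold higher in control line 1 and 31.95-fold in control line 2. In the KO line its 3 cultured counts gave a ratio of 206, with an exact 95% interval of 70.4 to 1001. For lumican the 4 cultured counts of control line 1 gave a ratio of 233 (90.7 to 855). The 1 cultured count of the KO line gave a ratio of 38.7 (6.75 to 1547), and the 1 count of control line 2 gave 18.1 (3.06 to 734). Osteoglycin and osteomodulin, already present in culture, differed least: 6.93-fold and 3.16-fold in the KO line, 5.42-fold and 2.84-fold in control line 1, and 5.99-fold and 4.83-fold in control line 2. These ratios compare 2 purified libraries with 1 cultured library per line and have no replicate check of their own.

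Fibroblast markers rose along with the members, with 8 of 12 higher in purified than in cultured cells, where edgeR called 22.1% of all genes higher. Their median was 2.03 on the log2 scale. Among leukocyte markers 2 of 6 tested were higher, Cd14 and Itgam. Ptprc, which marks leukocytes, was at 0.459 to 2.26 CPM in purified cells and 0.361 to 0.592 CPM in culture. Purification, growth in the host and any batch of library preparation cannot be told apart in this comparison.

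KO tumors were then set against the cells purified from KO tumors, and 3 members were higher and 1 lower of 8 tested, where edgeR called 57.3% of 15033 genes, 31.6% higher and 25.7% lower. A share of 4 in 8 is thus close to that of all genes. The 8 include Fmod, which passed the filter in this fit with at most 14 counts in any library and was not called. Lumican had 7.17 to 22.7 CPM in KO tumors, against 1.33 and 2.52 CPM in purified KO cells (log2 fold change 2.75 ± 0.53, SE; edgeR adjusted p = 0.000341). Decorin had 141 to 258 CPM in KO tumors, against 76.3 CPM in both purified libraries (1.43 ± 0.23, SE; edgeR adjusted p = 4.25e-05). Biglycan was higher by 1.34 ± 0.41 on the log2 scale (SE; edgeR adjusted p = 0.0109), a call lost without either purified library (adjusted p = 0.0730 and 0.0885). Prolargin went the other way, with 10.3 to 17.8 CPM in KO tumors, against 27.5 and 33.6 CPM in purified KO cells (-1.20 ± 0.17, SE; edgeR adjusted p = 5.38e-06). Ranges lay apart with tumors higher for Lum, Dcn and Bgn and for 30.3% of all genes tested, and with tumors lower for Prelp and for 27.6%.

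In control line 1 the same step gave 5 of 8 members lower in tumors than in purified cells, where edgeR called 53.5% of 15033 genes in either direction and 23.9% lower. Lumican had 8.10 to 20.5 CPM in control tumors, against 40.5 and 60.3 CPM in purified cells (-1.83 ± 0.35, SE; edgeR adjusted p = 0.000304). Osteoglycin was lower by 1.07, asporin by 0.80, prolargin by 0.78 and osteomodulin by 0.60 on the log2 scale. This rests on few purified libraries: without replicate 2 of purified control line 1, Lum alone stayed called (1 member). The Aspn call was also lost without replicate 1 of purified control line 1 (adjusted p = 0.0661). The Omd call was lost in 4 alternatives, the others being upper-quartile scaling, no filter on low counts and control tumor 1 left out, with an adjusted p of 0.0520 to 0.460. Without replicate 1 of the purified cells Dcn was called lower (-0.67, adjusted p = 0.0271). Decorin had 341 to 461 CPM in control tumors, against 386 and 660 CPM in purified cells, and was not called (-0.33 ± 0.20, SE; edgeR adjusted p = 0.178).

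The KO difference itself was compared between settings as an interaction, with control line 1 as the control in both. Lumican and decorin were called, 2 of 8 members tested, where 10.1% of 15033 genes were called in either direction and 4.82% with a higher and 5.27% with a lower KO difference in tumors. For lumican the KO minus control 1 difference was less negative in tumors (-0.13) than in purified cells (-4.70), with an interaction of 4.58 ± 0.65 on the log2 scale (SE; edgeR adjusted p = 0.000495). The genotypes had similar lumican levels in tumors (12.7 ± 5.63 CPM in KO and 14.0 ± 4.23 CPM in control tumors, SD), while the purified means were 1.92 CPM in KO and 50.4 CPM in control line 1. For decorin the difference was -1.02 in tumors and -2.76 in purified cells, with an interaction of 1.75 ± 0.30 (SE; edgeR adjusted p = 0.00156). Prolargin kept a large difference in both settings, and its interaction was -0.43 ± 0.25 (SE; edgeR adjusted p = 0.289). The interactions of Aspn, Bgn, Ogn and Omd were 0.92 to 1.30, with edgeR adjusted p of 0.0849 to 0.220. That of Fmod was 2.66 ± 1.87 (SE; edgeR adjusted p = 0.396) and rests on too few counts to be read. Control line 2 has no tumor libraries, so this contrast could not be made with it. On the log2 scale, leukocyte markers were higher in tumors than in purified cells by a median of 7.77 (KO line) and 6.19 (control line 1). In the same order, endothelial markers were higher by 6.83 and 5.85, and pericyte and smooth muscle markers by 3.37 and 4.01. Fibroblast markers had medians of 0.21 and 0.12, against 0.092 and 0.069 over all genes. The part of these cells in the interaction was not tested.

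Asporin, osteomodulin and osteoglycin are neighbours on chromosome 13, all on the forward strand, with Ecm2 before them (GRCm38). Aspn lies at chr13:49544443-49567565, Omd at chr13:49582462-49592612 and Ogn at chr13:49608015-49624501, with gaps of 14.9 kb and 15.4 kb. All 3 lie inside the span of Cenpp on the other strand, whose exons overlap those of Aspn by 7 bases and which averaged 5.56 to 9.30 CPM over the groups. Ecm2, 11.7 kb before Aspn, averaged 0.881 CPM in KO tumors and 0.501 CPM in control tumors. The 250 bases before the start of each are shown because the 3 genes varied together among tumors, with capitals at matches to TATAAA or CANNTG on either strand (RefSeq, GRCm38.p6).
Aspn: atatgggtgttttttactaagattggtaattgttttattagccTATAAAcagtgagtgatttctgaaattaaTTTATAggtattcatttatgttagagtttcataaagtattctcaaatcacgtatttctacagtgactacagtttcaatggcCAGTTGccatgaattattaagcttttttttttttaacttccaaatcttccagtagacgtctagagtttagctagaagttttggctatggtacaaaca
Omd: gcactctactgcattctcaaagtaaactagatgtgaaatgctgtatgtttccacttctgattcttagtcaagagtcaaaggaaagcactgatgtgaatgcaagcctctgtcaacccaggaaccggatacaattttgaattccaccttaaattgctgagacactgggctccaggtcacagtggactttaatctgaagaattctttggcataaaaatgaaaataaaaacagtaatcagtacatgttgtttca
Ogn: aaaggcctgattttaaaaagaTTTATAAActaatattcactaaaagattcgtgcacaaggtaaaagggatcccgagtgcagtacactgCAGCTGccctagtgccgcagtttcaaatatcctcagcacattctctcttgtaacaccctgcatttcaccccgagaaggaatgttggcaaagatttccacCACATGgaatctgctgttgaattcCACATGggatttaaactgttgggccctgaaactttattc

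These windows are chr13:49544193-49544442 for Aspn, chr13:49582212-49582461 for Omd and chr13:49607765-49608014 for Ogn. A check of the start against GENCODE transcripts held for Aspn and Omd but not for Ogn. The place of the Ogn start, and of the matches before it, is therefore less sure. Aspn holds 2 TATAAA matches and 1 E box, Ogn holds 2 and 3, and Omd holds neither. The pair of TATAAA matches in Ogn overlap, since they read the same letters on both strands. G and C make up 30% of the Aspn window, 38.4% of Omd and 42% of Ogn, all under the median of 52.4%.

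Among tumors of the same genotype, the levels of Ogn and Aspn went together. After the mean of each genotype was subtracted from log2 CPM, their Pearson r over the 15 tumors was 0.94 (Spearman rho 0.93), and each was the other's closest gene among 10183 compared. It was 0.97 within the 7 KO tumors, 0.91 within the 8 control tumors and 0.91 without the 2 tumors farthest out. Ogn and Omd had r = 0.77, Aspn and Omd r = 0.68. These are descriptions without a test, and the points share each library's scaling and its mix of cells. Among KO tumors, replicate 6 was highest for both Ogn (199 CPM) and Aspn (213 CPM), and control tumor 8 was lowest among controls for both (53.3 and 104 CPM). The KO minus control differences of the 3 genes, -0.45 for Aspn, -0.74 for Omd and 0.42 for Ogn, were not tested against each other.

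**Figure D3:**
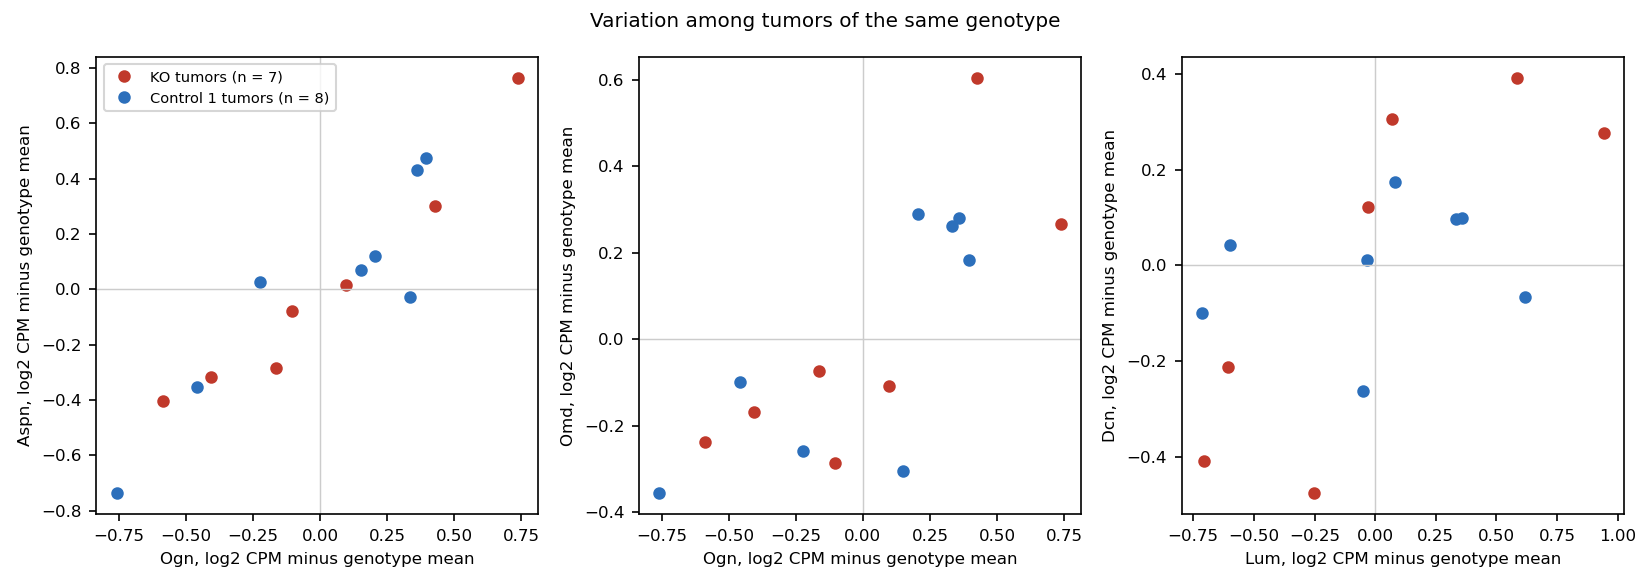
Each point is a tumor, and both axes give log2 CPM minus the mean of its genotype. Ogn and Aspn fall along a line (r = 0.94), Ogn and Omd less so (r = 0.77), and Lum and Dcn scatter more (r = 0.63).

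The neighbours on chromosome 10 went together less. Dcn (chr10:97479500-97518163) and Lum (chr10:97565501-97572703) are 47.3 kb apart on the forward strand, and their r was 0.63 over the 15 tumors. It was 0.81 within KO tumors and 0.22 within control tumors, a difference that was not tested. Members on different chromosomes also went together. Bgn, on chromosome X, and Lum had r = 0.68 over the 15 tumors, 0.59 within KO tumors and 0.86 within control tumors. Such covariation was thus not particular to neighbours. Kera, the next class II gene 34.3 kb after Lum, averaged 0.0400 CPM in KO tumors and 0.208 CPM in control tumors, and in purified cells 0.0689 CPM in KO cells, 0.122 CPM in control line 2 and 0.806 CPM in control line 1. Epyc, after Kera, had 0 counts in all tumors.

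For Bgn, on chromosome X at chrX:73483601-73495936, the closest genes among tumors were Loxl1 (r = 0.97), Adamts2 (r = 0.95) and Vav1 (r = 0.92). Loxl1 cross-links elastin and collagen and Adamts2 trims procollagen. Prelp was closest to Akt2 (r = 0.89), Kdelc2 (r = 0.89) and Tmc6 (r = 0.84), and Lum to Pip4k2a (r = 0.91), Pla1a (r = 0.87) and Slamf9 (r = 0.86). Dcn was closest to Ttc32 (r = 0.82), Arsj (r = 0.77) and Nme7 (r = 0.77), and Omd to Snhg3 (r = 0.87), Akr1c14 (r = 0.84) and Rfxap (r = 0.82). After each other, Ogn was closest to Irs1 and Agt and Aspn to Kcnj2 and Clcn4. The highest of 10183 correlations is high by choice, so these names describe the 15 tumors and carry no test.

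Other genes of the pathway were counted in the same tumors, against the median of 0.0092 over all genes. There edgeR called 18.1% of all genes tested higher and 19% lower, and counts near those shares are not read as a result. Of 4 other small leucine-rich genes tested, 1 was higher in KO tumors, podocan (Podn, 1.32 CPM in KO and 0.535 CPM in control tumors, edgeR adjusted p = 0.0109), and the list's median log2 fold change was 0.36. Among 13 large and cell surface proteoglycans tested 3 were higher and 3 lower, with a median of 0.15. Glypican Gpc1 was lower (179 CPM in KO and 234 CPM in control tumors), as were endocan Esm1 (582 and 829 CPM) and syndecan Sdc4 (131 and 160 CPM), while serglycin Srgn, a granule proteoglycan of leukocytes, was higher (110 and 83.9 CPM). Enzymes of chondroitin and dermatan sulfate had 4 higher and 6 lower of 19, with a median of 0.069. Chst15, Csgalnact1 and Chst12 were lower by 0.73, 0.82 and 0.44 on the log2 scale, and the epimerase Dse, which makes dermatan sulfate, was higher by 0.39.

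Of 8 keratan sulfate enzymes 1 was higher, the sulfotransferase Chst2 (2.82 CPM in KO and 1.57 CPM in control tumors), and the median was -0.022. Among 15 proteases and enhancers tested 3 were higher and 4 lower, with a median of 0.11. Stromelysin Mmp3 averaged 44.4 CPM in KO and 93.3 CPM in control tumors, and collagenase Mmp13 33.8 CPM in KO and 70.3 CPM in control tumors. Adamts5, an aggrecanase, was higher (4.91 CPM in KO and 1.52 CPM in control tumors), as was gelatinase Mmp2 (18.3 and 9.64 CPM). Fibrillar collagens and lysyl oxidases had 4 higher and 1 lower of 15, with a median of 0.076. The 4 with the smallest p were higher: Lox by 1.33 ± 0.25, Col5a2 by 1.09 ± 0.25, Loxl1 by 1.06 ± 0.28 and Loxl2 by 0.88 ± 0.24 on the log2 scale (SE). Growth factors and receptors that these proteoglycans bind had 2 higher and 3 lower of 17, with a median of -0.051. Met, a receptor that decorin binds, was lower by 0.33 and Cd44 by 0.18, while Bmp7 was higher by 1.60 and Wisp1 by 0.53.

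Between the purified control lines, 7 of 14 collagens and lysyl oxidases were lower in control line 2 than in control line 1. Over all genes tested, edgeR called 9.01% lower. The median of the list was -0.44, against 0.0029 over all genes. Col3a1, the type III collagen chain, averaged 542 CPM in control line 2 and 1441 CPM in control line 1, and Col5a1 averaged 259 CPM in control line 2 and 427 CPM in control line 1. In purified KO cells against both control lines, the lists held few calls, where edgeR called 2.26% of all genes higher and 2.29% lower. Col12a1, a fibril-associated collagen, was higher (3.09 CPM in KO cells and 0.708 CPM in the controls) and Loxl3 lower (134 CPM in KO cells and 191 CPM in the controls). Bmp2, a ligand that asporin binds, averaged 151 CPM in KO cells and 28.4 CPM in the controls (log2 fold change 2.42 ± 0.22, SE; edgeR adjusted p = 0.00109). It was also called between the purified control lines, so this control mean pools lines that differ in Bmp2.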

How the data were processed

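RNA from cultured CT26 cells, whole tumors and purified tumor cells was sequenced on an Illumina platform after mRNA enrichment, per the labels' protocols. STAR, RSEM, DESeq2 and the mm10 build are named in the submitters' processing notes, and their versions are not given in the sources used. The authors deposited RSEM expected counts and TPM per gene, and DESeq2 tables of log2 fold changes with adjusted p-values, per the file headers. All 24 libraries were mapped from the labels.

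Expected counts were rounded and tested with edgeR 4.0.16 in R 4.3.3: TMM scaling, filterByExpr (minimum count 10, minimum total 15), the quasi-likelihood F test, and Benjamini-Hochberg adjustment over all genes tested, with a threshold of 0.05. Each comparison used its own libraries, and tumors and purified cells of the KO line and control line 1 entered a 4-group fit for the contrasts between settings. Line was a covariate where purified and cultured cells were compared. Standard errors were taken as the absolute log2 fold change divided by the root of F. CPM values use TMM over all 24 libraries. Tests are two-sided. Only the contrast listed first in each fit was run on simulated data. That leaves out the interaction, tumors against purified cells of control line 1, and KO against each control line alone.

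The members, lists and comparisons were chosen with earlier results of these data known. Named are the 8 members, Sun1, genes next to members in the same cluster, up to 4 called members of each list with the smallest p in tumors, and for each member averaging 5 CPM or more in tumors the 3 genes of highest Pearson r. Genes of lists named in purified cells, and single marker genes, were chosen after their values were seen. Of the 8 members, 6 had a RefSeq promoter entry. Whether replicates are separate animals is not stated in the labels, so a p-value here reflects the spread of these libraries, which may be technical. Libraries of a group differed beyond counting noise (chi-square per gene at least 7.38). Alternatives were other scalings, no filter on low counts, DESeq2 1.42.0, a replicate block, each control line alone and each library left out.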

Additional observations from a re-analysis of the deposited data

Results flagged for a closer look

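The KO difference from control line 1 was not the same in tumors and in purified cells for decorin and lumican, by the test of that difference. For decorin it was -1.02 on the log2 scale in tumors and -2.76 in purified cells, so less negative in tumors, with an interaction of 1.75 (edgeR adjusted p = 0.00156). For lumican it was -0.13 in tumors and -4.70 in purified cells, with an interaction of 4.58 (edgeR adjusted p = 0.000495). Both calls held when any 1 library was left out, with an adjusted p of at most 0.0217 for decorin and 0.00977 for lumican. In each of the 14 combinations of a member and a tumor group, no tumor stood apart by Dixon's test at the 95% level, which flags about 1 in 20 groups by chance.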

How the results depend on the processing

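The prolargin, decorin and osteomodulin calls in tumors and the 7 calls of purified over cultured cells were kept under every alternative run. In tumors the count of members called higher was 0 and became 1 (biglycan) with DESeq2, and it was 0 to 1 with a tumor left out. In purified cells with both control lines, the 568 genes called became 908 with no filter on low counts, 1139 with DESeq2, 303 with the replicate block, 2300 against control line 1 alone, 2676 against control line 2 alone and 72 to 540 with a library left out. Members called lower there were 0, against 6 with control line 1 alone and 0 to 1 with a library left out. With control line 2 alone, 4 estimates reversed: Prelp 0.21, Lum 1.02, Dcn 0.57 and Aspn 0.83. Among cultured cells, Aspn (-1.21 to 0.021 with a control line left out) reversed without control line 1. In culture the 0 genes called became 3 with upper-quartile scaling, 95 with no filter and 45 with DESeq2. Between the control lines, 1964 genes became 791 to 2215 and 5 members became 3 to 5 with a library left out. In KO tumors against purified KO cells, Omd (-0.014 to 0.69 with a library left out) and Aspn (-0.0058 to 0.39) reversed without replicate 2 of the purified KO cells. In control line 1, Dcn (-0.67 to 0.10) reversed without replicate 2 of its purified cells, and members called lower were 1 to 5 with a library left out. For the interaction, members called higher were 2 in the main test, 4 with DESeq2 (Ogn and Omd added), and all genes called were 546 to 1705 with a library left out, against 1517. The cause of these changes was not tested. Where a library left out leaves 1 sample in an arm, that sample is assumed to vary like the other groups. Replicate numbers did not pair the samples: over 7 tumor pairs the correlation of deviations was -0.11 to 0.22, only 2 pairs were over 0.1, and 0 tumors matched their own number best. Depth limits Fmod in every group and Lum in culture.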
